A study of Mus musculus with 3 samples.

Results

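The 10 genes described here mark the cells between and around the testis cords: the contractile genes Acta2, Myh11 and Des, the matrix genes Dcn and Lum, the receptor gene Pdgfra, and the transcription factor genes Lhx2, Lhx9, Tcf21 and Nr2f2. Every non-control array probe whose transcript accession carried one of these symbols in the mouse RefSeq gene table was taken, which gave 14 probes of 41174 on the array. All 14 were well above background on all 6 arrays, none had a saturated spot, and all 14 passed the filter on dim probes that left 27864 probes. Gonads were dissected from male mouse embryos at embryonic day 14.5, and their total RNA was hybridised to Agilent 1-colour arrays. The embryos belonged to a line that the labels call MCH, and each genotype had 2 arrays, which the design text calls biological duplicates. The genotypes were wild type (Cyp26b1+/+ and Stra8+/+), the Cyp26b1 knockout (Cyp26b1-/- and Stra8+/+) and the double knockout (Cyp26b1-/- and Stra8-/-). How the alleles were made, and how many embryos contributed to an array, is not stated in the labels.

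Cyp26b1 encodes an enzyme that breaks down retinoic acid in the fetal testis, and Stra8 is a retinoic acid target that germ cells need to enter meiosis. The fetal testis consists of cords of Sertoli and germ cells, ringed by flat contractile peritubular myoid cells, in an interstitium of fibroblast-like progenitors, steroidogenic Leydig cells and vessels. Alpha smooth muscle actin (Acta2), smooth muscle myosin heavy chain (Myh11) and the intermediate filament desmin (Des) belong to the contractile apparatus, and vascular smooth muscle makes them too. Decorin (Dcn) and lumican (Lum) are small leucine-rich proteoglycans that bind collagen fibrils. Pdgfra, a receptor tyrosine kinase for platelet-derived growth factor, marks the interstitial progenitors. Lhx2 and Lhx9 are LIM homeodomain factors of the early gonad, Tcf21 is a basic helix-loop-helix factor of mesenchyme that binds E-boxes, and Nr2f2 (COUP-TFII) is an orphan nuclear receptor of interstitial cells.

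Promoter sequences were taken from RefSeq (build GRCm38.p6), as 300 bases per start site: 250 before it and 50 after it. They covered 7 of the 10 genes with 8 promoters. The promoters of Acta2 and Des are shown as examples from the contractile genes, each with a probe called higher in the Cyp26b1 knockout. Another Acta2 probe was called lower there. Pdgfra and Lhx9 also had a probe called higher, and their promoters are not shown. One of the 2 Lhx2 promoters is shown, the one with an E-box, because Lhx2 had the largest rise in the double knockout among the 10 genes. Capitals mark the E-box, searched as CANNTG, which reads the same on both strands.
Acta2, chr19:34255324-34255623, minus strand: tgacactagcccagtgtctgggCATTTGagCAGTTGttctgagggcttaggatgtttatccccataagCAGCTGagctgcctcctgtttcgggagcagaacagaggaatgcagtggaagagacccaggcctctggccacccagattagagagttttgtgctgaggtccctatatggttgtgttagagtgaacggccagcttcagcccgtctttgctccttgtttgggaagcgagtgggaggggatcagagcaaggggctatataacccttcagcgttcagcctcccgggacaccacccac
Des, chr1:75360042-75360341, plus strand: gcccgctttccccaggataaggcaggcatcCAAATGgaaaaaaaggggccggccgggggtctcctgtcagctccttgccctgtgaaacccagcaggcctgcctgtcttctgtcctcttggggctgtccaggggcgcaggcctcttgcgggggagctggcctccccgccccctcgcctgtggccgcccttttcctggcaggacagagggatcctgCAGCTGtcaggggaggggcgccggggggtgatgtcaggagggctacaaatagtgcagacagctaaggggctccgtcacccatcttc
Lhx2, chr2:38351058-38351357, plus strand: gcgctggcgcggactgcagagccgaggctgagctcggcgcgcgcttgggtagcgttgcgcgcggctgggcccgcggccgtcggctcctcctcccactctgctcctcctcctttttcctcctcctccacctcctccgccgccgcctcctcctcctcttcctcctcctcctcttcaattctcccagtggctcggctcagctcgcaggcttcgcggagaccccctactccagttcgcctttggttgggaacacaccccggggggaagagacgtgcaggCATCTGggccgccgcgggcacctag
The Acta2 promoter held 3 E-boxes, which began 228, 220 and 182 bases before the start. Des held 2, at 220 and 36 bases before it, and this Lhx2 promoter held 1, after the start. Such a box occurred in 72.3% of the 32851 promoters in the table, so a match is common. The CArG box bound by serum response factor was searched as CCWWWWWWGG, with W for A or T. On either strand it occurred in 1.63% of promoters, AGGTCA in 16.3% and TAATTA in 5.29%. The 8 promoters of the 10 genes held no exact match to any of the 3. Inexact matches were not searched. Read outside that search, the Acta2 promoter above holds ccctatatgg and ccttgtttgg, each 1 letter off the CArG pattern. How often such near matches occur in other promoters was not counted. These matches are descriptions of letters in a window and were not tested as binding sites.

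A level below is the log2 processed signal minus the 75th percentile of its array, so a probe at that percentile reads 0. A difference of 1 is a doubling. Levels of different probes are not set against each other. A probe was called when its limma p-value, adjusted by the Benjamini-Hochberg method over all probes tested, was under 0.05 (two-sided). In bulk gonad RNA, fewer cells of a type and less RNA per cell cannot be told apart.

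**Figure D1:**
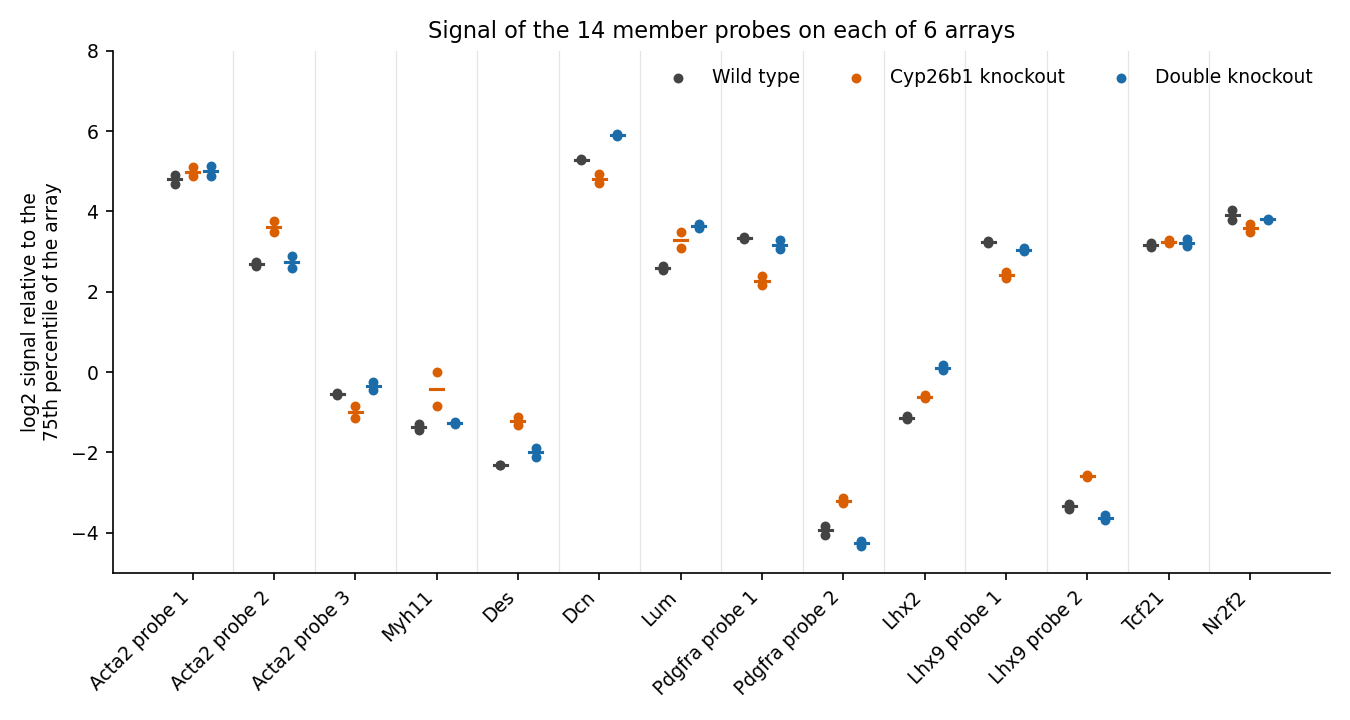
Level of each of the 14 probes (x axis, by gene) on each of the 6 arrays (y axis, log2 signal less the array's 75th percentile); points are arrays and bars are genotype means (n = 2). Lhx2 and Lum climb from wild type to double knockout, while probes of Acta2, Pdgfra and Lhx9 move apart in the Cyp26b1 knockout.

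Between the double knockout and wild type, which differ in both genes, 3 of the 14 probes were higher, 0 were lower and 11 were not called. The 3 were Lhx2, Lum and Dcn. Over all probes tested, 5.01% were called higher and 6.48% lower in this comparison. The median difference was 0.08 over the 14 probes and -0.02 over all probes. At an unadjusted limma p under 0.05 still 0 were lower, and Des was the 1 further probe that was higher.

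Between the Cyp26b1 knockout and wild type, 7 probes were higher, 5 were lower and 2 were not called. The background is high in this comparison: 25.1% of all probes were called higher and 28.2% lower. The higher probes belonged to Des, Myh11, Lum, Lhx2 and to 1 probe each of Acta2, Pdgfra and Lhx9. The lower probes belonged to Dcn, Nr2f2 and to another probe each of Acta2, Pdgfra and Lhx9. The median was 0.36 over the 14 probes and -0.04 over all probes. With normexp, a model-based background correction, fitted on all spots, the calls of Des (0.44, adjusted p = 0.536), Lhx2 (0.22, adjusted p = 0.647), Dcn (-0.21, adjusted p = 0.706), Nr2f2 and the dimmest probes of Acta2, Pdgfra and Lhx9 were lost.

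Between the double and the Cyp26b1 knockout, which differ by the labels only at Stra8, 5 probes were higher, 5 were lower and 4 were not called, against 23.6% higher and 22.3% lower over all probes. The higher probes were Dcn, Lhx2 and 1 probe each of Pdgfra, Lhx9 and Acta2. The lower probes were Des, Myh11 and another probe each of Acta2, Pdgfra and Lhx9. This comparison shares its Cyp26b1 knockout arrays with the previous one, and the values of both are given side by side for each gene below. Normexp on all spots ended the calls of Des (-0.53, adjusted p = 0.476), both Lhx9 probes and the dimmest probes of Acta2 and Pdgfra here, and that of Dcn (0.78, adjusted p = 0.348) in the double knockout against wild type.

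**Figure D2:**
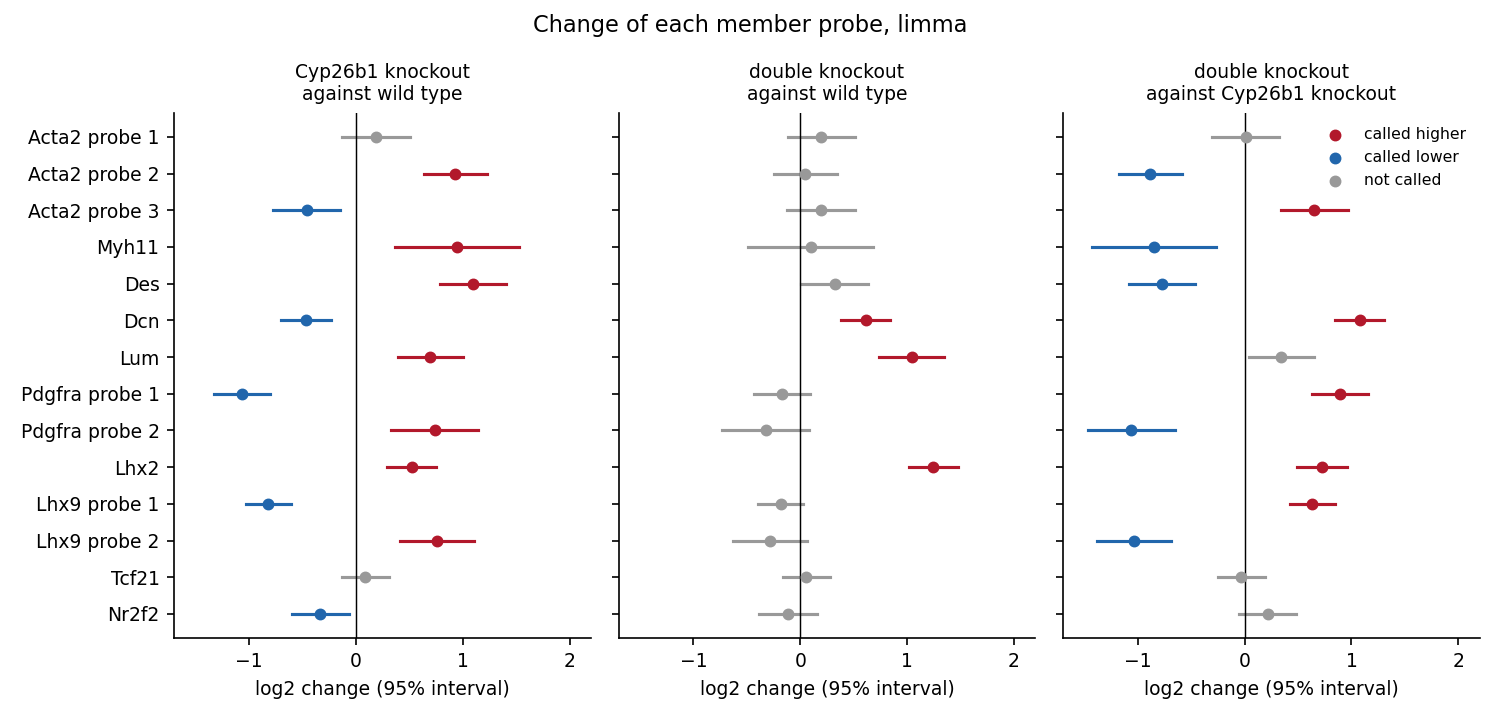
Difference of each probe (log2, x axis) with its 95% interval from limma in the 3 comparisons; red and blue points were called higher and lower, and grey points were not called. Lhx2, Lum and Dcn are the red points of the middle panel, and 7 red and 5 blue points stand in the left panel.

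Lhx2 stood at -1.17 and -1.10 on the wild-type arrays, -0.65 and -0.57 on the Cyp26b1 knockout arrays and 0.17 and 0.06 on the double knockout arrays. The 3 genotypes did not overlap, and their order was wild type, Cyp26b1 knockout, double knockout. The double knockout exceeded wild type by 1.25 ± 0.10 (SE, n = 2 per genotype; 2.37-fold, adjusted p = 0.000959). The Cyp26b1 knockout exceeded wild type by 0.52 ± 0.10 (adjusted p = 0.00374), and the double knockout exceeded the Cyp26b1 knockout by 0.72 ± 0.10 (adjusted p = 0.00134). Probes of similar level had a median of 0.00 between double knockout and wild type. The call against wild type in the double knockout held in all 17 alternative settings, with values of 0.89 to 1.30.

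Lhx9, the related LIM homeodomain gene, has 2 probes, annotated to different RefSeq transcripts. The brighter probe read 3.26 and 3.20 in wild type, 2.34 and 2.49 in the Cyp26b1 knockout, and 3.09 and 3.01 in the double knockout. It was lower in the Cyp26b1 knockout than in wild type by 0.82 on the log2 scale (SE 0.09, adjusted p = 0.000373) and 0.64 ± 0.09 higher in the double than in the Cyp26b1 knockout (adjusted p = 0.00149). The dimmer probe ran the other way: -3.41 and -3.28 in wild type, -2.62 and -2.56 in the Cyp26b1 knockout, and -3.56 and -3.69 in the double knockout. It was 0.76 ± 0.15 higher in the Cyp26b1 knockout than in wild type (adjusted p = 0.00428), and the double minus the Cyp26b1 knockout was -1.04 ± 0.15 (adjusted p = 0.00157). On both probes the 2 Cyp26b1 knockout arrays lay apart from the other 4, on opposite sides. Neither probe was called between the double knockout and wild type, with differences of -0.18 and -0.28 (adjusted p = 0.223 and 0.255). Under the deposited table's scaling the brighter probe was called lower there, at -0.38 (adjusted p = 0.0242).

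Tcf21 was not called in any of the 3 comparisons. It read 3.21 and 3.12 in wild type, 3.30 and 3.20 in the Cyp26b1 knockout, and 3.30 and 3.14 in the double knockout. The arrays of the 3 genotypes overlapped. The Cyp26b1 knockout differed from wild type by 0.09 (95% interval -0.13 to 0.31) and the double knockout by 0.06 (95% interval -0.16 to 0.28), so a change of 1 on the log2 scale lies outside both intervals. Under the scaling of the authors' deposited table the double knockout was called lower than the Cyp26b1 knockout, with -0.34 (adjusted p = 0.0213), and under cyclic loess the Cyp26b1 knockout was called higher than wild type, with 0.22 (adjusted p = 0.0458).

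Nr2f2 read 4.04 and 3.78 in wild type, 3.69 and 3.48 in the Cyp26b1 knockout, and 3.80 and 3.79 in the double knockout. The Cyp26b1 knockout arrays were the lowest without overlap, but the gap to wild type was smaller than that between the wild-type arrays. Its difference between Cyp26b1 knockout and wild type, -0.33 ± 0.12, only just passed the threshold (adjusted p = 0.0427). The call was absent in 11 of 17 alternatives, among them omission of the first wild-type array (-0.20, adjusted p = 0.259), of the second Cyp26b1 knockout array (-0.23, adjusted p = 0.172), or of either double knockout array (adjusted p = 0.0646 without the first and 0.0642 without the second). The double knockout was not called against wild type (-0.11, adjusted p = 0.553) or against the Cyp26b1 knockout (0.22, adjusted p = 0.159).

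The proteoglycan genes Lum and Dcn both exceeded wild type in the double knockout. Lum read 2.65 and 2.54 in wild type, 3.10 and 3.49 in the Cyp26b1 knockout, and 3.68 and 3.60 in the double knockout. No genotypes overlapped, though the Cyp26b1 knockout arrays stood well apart from each other. The double knockout exceeded wild type by 1.04 ± 0.13 (2.06-fold, adjusted p = 0.00453) and the Cyp26b1 knockout exceeded it by 0.70 ± 0.13 (adjusted p = 0.00346). The 2 knockout genotypes are neighbours in the order that were not separated: 0.34 ± 0.13 (adjusted p = 0.0639). Without the second Cyp26b1 knockout array that difference was 0.54 and was called (adjusted p = 0.00883), and under the deposited table's scaling it was 0.04. The 2 differences from wild type kept their calls in all 17 alternatives.

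Dcn read 5.30 and 5.27 in wild type, 4.72 and 4.92 in the Cyp26b1 knockout, and 5.88 and 5.92 in the double knockout. The Cyp26b1 knockout arrays were the lowest and the double knockout arrays the highest, with wild type between and no overlap. The double knockout exceeded the Cyp26b1 knockout by 1.08 ± 0.10 (2.11-fold, adjusted p = 0.000398), a call that held in all 17 alternatives. Against wild type the double knockout was 0.61 ± 0.10 higher (adjusted p = 0.0105) and the Cyp26b1 knockout fell by 0.47 ± 0.10 (adjusted p = 0.00597). The rise in the double knockout lost its call when the first wild-type array (0.63, adjusted p = 0.0733), the second (0.60, adjusted p = 0.0915) or the second double knockout array (0.59, adjusted p = 0.0650) was left out. The fall in the Cyp26b1 knockout was -0.27 under cyclic loess and was not called (adjusted p = 0.0805); probes of similar level had a median of -0.15 in that comparison.

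Pdgfra has 2 probes that opposed each other. The brighter, with 9 or 10 usable spots per array whose SD within an array was 0.027 to 0.071, read 3.37 and 3.31 in wild type, 2.16 and 2.39 in the Cyp26b1 knockout, and 3.06 and 3.28 in the double knockout. It fell by 1.07 ± 0.11 in the Cyp26b1 knockout (adjusted p = 0.000325) and was 0.89 ± 0.11 higher in the double than in the Cyp26b1 knockout (adjusted p = 0.00101), both in all 17 alternatives. The dimmer probe read -4.06 and -3.82 in wild type, -3.14 and -3.26 in the Cyp26b1 knockout, and -4.32 and -4.20 in the double knockout. The Cyp26b1 knockout arrays were thus the lowest on the first probe and the highest on the second. On the dimmer probe the Cyp26b1 knockout was 0.74 ± 0.18 above wild type (adjusted p = 0.00983), though not called when the first wild-type array was left out (0.62, adjusted p = 0.0732), and the double minus the Cyp26b1 knockout was -1.06 ± 0.18 (adjusted p = 0.00274). The double knockout was not called against wild type on either probe, with -0.17 (adjusted p = 0.350) and -0.32 (adjusted p = 0.263).

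Among the contractile genes, Des read -2.32 on both wild-type arrays, -1.32 and -1.13 in the Cyp26b1 knockout, and -1.88 and -2.11 in the double knockout. Its spots, 10 per array, had an SD within an array of 0.043 to 0.101, which measures the spread of spots and not that between samples. The order was wild type, double knockout, Cyp26b1 knockout, without overlap. The Cyp26b1 knockout exceeded wild type by 1.10 ± 0.13 (2.14-fold, adjusted p = 0.000566), and the double minus the Cyp26b1 knockout was -0.77 ± 0.13 (adjusted p = 0.00333). The double knockout and wild type, neighbours in that order, were not separated (0.32 ± 0.13, adjusted p = 0.159).

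Myh11 read -1.29 and -1.45 in wild type, -0.86 and 0.01 in the Cyp26b1 knockout, and -1.23 and -1.30 in the double knockout. Both Cyp26b1 knockout arrays were above the other 4, but they stood further from each other than the lower one did from wild type. The Cyp26b1 knockout exceeded wild type by 0.95 ± 0.25 (adjusted p = 0.0153), and this rested in part on its second array: without it the difference was 0.51 (adjusted p = 0.0237). Without the second wild-type array the difference was 0.86 and was not called (adjusted p = 0.0791). The double minus the Cyp26b1 knockout was -0.85 ± 0.25 (adjusted p = 0.0277). It lost its call when the second Cyp26b1 knockout array (-0.41, adjusted p = 0.0548), the first double knockout array (-0.88, adjusted p = 0.0705) or the second (-0.81, adjusted p = 0.0901) was left out, and was -1.28 without the first Cyp26b1 knockout array. Double knockout and wild type differed by 0.10 ± 0.25 and were not called.

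Acta2 has 3 probes to the same RefSeq transcript, and in the Cyp26b1 knockout they disagreed. The brightest, with 8 to 10 usable spots per array (SD within an array 0.026 to 0.13), read 4.92 and 4.69 in wild type, 4.87 and 5.12 in the Cyp26b1 knockout, and 5.13 and 4.88 in the double knockout. All 3 genotypes overlapped on it, and the Cyp26b1 knockout minus wild type was 0.19 (95% interval -0.13 to 0.50). The second read 2.73 and 2.65, then 3.75 and 3.49, then 2.88 and 2.60. It was 0.93 ± 0.13 higher in the Cyp26b1 knockout than in wild type (adjusted p = 0.000892), and the double minus the Cyp26b1 knockout was -0.88 ± 0.13 (adjusted p = 0.00161). The dimmest read -0.52 and -0.57, then -1.16 and -0.85, then -0.24 and -0.46. On this one the Cyp26b1 knockout arrays were the lowest: -0.46 ± 0.13 against wild type (adjusted p = 0.0232), while the double knockout was 0.65 ± 0.13 above the Cyp26b1 knockout (adjusted p = 0.00687). The lower call of the dimmest probe was lost on omitting either wild-type array (-0.44, adjusted p = 0.105 without the first; -0.48, adjusted p = 0.0799 without the second) or the first Cyp26b1 knockout array (-0.31, adjusted p = 0.109). Its higher call between the knockouts was lost under the deposited table's scaling (0.35, adjusted p = 0.0664). Between double knockout and wild type the 3 probes gave 0.20, 0.05 and 0.19, and none was called.

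**Figure D3:**
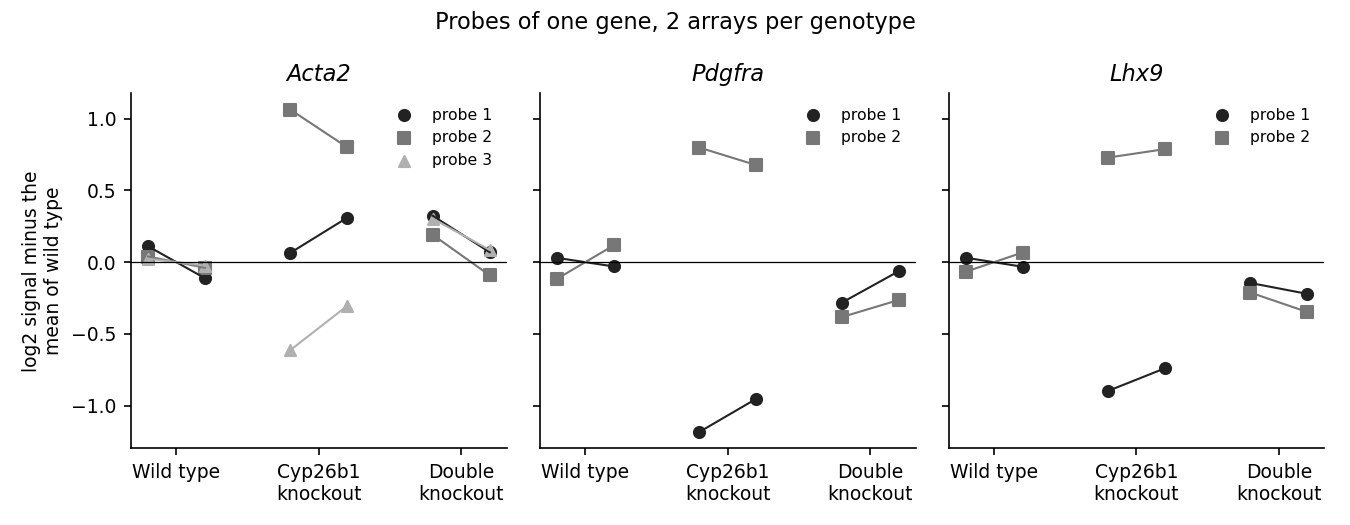
Signal of each probe of Acta2, Pdgfra and Lhx9 on each array, as the log2 difference from the wild-type mean of that probe (y axis), by genotype (x axis, 2 arrays each); lines join the 2 arrays of a genotype and show no order. The probes of each gene lie close together in the double knockout and split above and below 0 in the Cyp26b1 knockout.

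Thus each of the 3 genes with more than 1 probe was called both higher and lower in both comparisons that involve the Cyp26b1 knockout arrays. No single direction is therefore given here for Acta2, Pdgfra or Lhx9. These splits depended on the background correction. With normexp fitted on all spots, the dimmest probes of all 3 genes lost their calls in both comparisons. In the Cyp26b1 knockout against wild type, the dimmer probes of Pdgfra and Lhx9 then read -0.36 and -0.22, the sign of their brighter probes. The difference between the highest and lowest log2 change among the probes of a gene was 1.39 for Acta2, 1.58 for Lhx9 and 1.80 for Pdgfra between Cyp26b1 knockout and wild type. Between double knockout and wild type it was 0.15, 0.10 and 0.15. The same measure was taken over all 4506 genes with 2 or more tested probes. Its median was 0.58 between Cyp26b1 knockout and wild type, 0.19 between double knockout and wild type, and 0.56 between the 2 knockouts. In those comparisons 10.5%, 0.133% and 10.8% of the genes were called both ways, and 25.6%, 2.77% and 24.4% differed by more than 1 between probes. Probe disagreement was therefore widespread wherever the Cyp26b1 knockout arrays entered, and not particular to these 3 genes. Their differences were still larger there than those of most genes, which were not matched to them for number of probes or signal level. Between Cyp26b1 knockout and wild type, 11.65% of the genes differed by more than 1.4 between probes and 4.37% by more than 1.8. The other 7 genes have a single probe, so the agreement of probes could not be examined for Des, Myh11, Dcn, Lum, Lhx2, Tcf21 or Nr2f2.

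**Figure D4:**
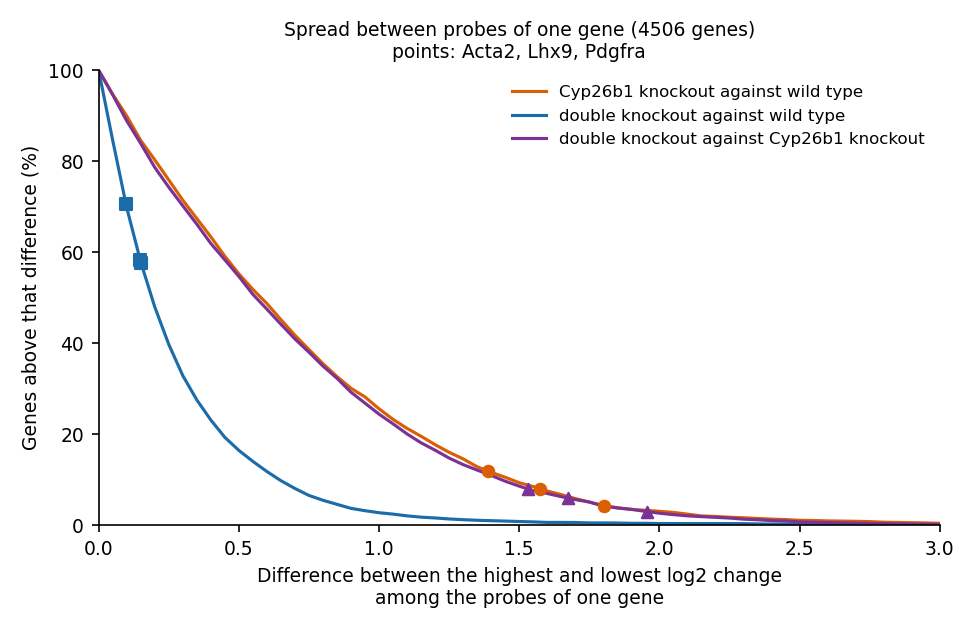
Share of the 4506 genes (y axis, %) whose probes differ by more than a given log2 change (x axis) in each comparison, with Acta2, Lhx9 and Pdgfra marked on the curves. The curves of both comparisons with the Cyp26b1 knockout lie far above that of double knockout against wild type, and the 3 genes sit from 1.39 to 1.96 on them.

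The arrays differed in more than genotype. Each genotype lay on a slide of its own, so slide and genotype cannot be told apart in any comparison. The wild-type and double knockout slides were scanned on one day and the Cyp26b1 knockout slide on another, so where the Cyp26b1 knockout arrays enter, genotype and day of scanning cannot be told apart. The 75th percentile of the signal was 997 to 1532 over the 6 arrays, 61.9% to 68.6% of probes were well above background, and the 2 arrays of a genotype correlated at 0.992 to 0.995 across probes. The median change of all probes also moved with level: from 0.07 in the dimmest class to -0.15 in the brightest between Cyp26b1 knockout and wild type, and from -0.21 to 0.05 between double knockout and wild type. Between the knockouts it moved most, from -0.23 to 0.24. There 9.06% of the dimmest class were called higher and 22.6% lower, and 38.6% and 5.23% of the brightest. The part of these differences in the members' values was not tested. Of the targeted genes, Stra8 read 3.69 and 2.37 in wild type, 7.15 and 6.99 in the Cyp26b1 knockout, and 5.94 and 6.10 in the double knockout, and Cyp26b1 read 3.78 to 4.23 on all 6 arrays. Neither was low in its knockout. The labels do not say whether either probe lies in the deleted part, so genotype names stand for arrays labelled so, and every direction given rests on those labels.

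Wider lists of the same cell types held 62 further genes, of which 54 were tested, each at its brightest probe. Between Cyp26b1 knockout and wild type, 8 were higher and 16 lower, where 23.7% of all named genes were called higher and 30.4% lower. Between double knockout and wild type, 4 were higher and 1 lower, where the shares were 6.73% and 6.35%, and 8 and 4 had an unadjusted p under 0.05 in the same directions. Between double and Cyp26b1 knockout, 14 were higher and 9 lower, where the shares were 29.3% and 18.3%. The list medians in these comparisons were 0.02, -0.01 and 0.18, and those of all named genes were -0.07, 0.03 and 0.11. The balance of these counts turned under the deposited table's scaling, which gave 7 higher and 16 lower between the knockouts, and 1 higher and 8 lower between double knockout and wild type. Normexp on all spots gave 7 higher and 5 lower between Cyp26b1 knockout and wild type, 3 and 0 between double knockout and wild type, and 5 and 6 between the knockouts. Between double knockout and wild type, 0 were higher and 1 lower with no filter on dim probes, and 1 was higher and 1 lower without the trend in the variance. Leaving out an array moved the counts: without the second wild-type array 2 genes were called higher against wild type in the Cyp26b1 knockout, and without the first wild-type array or the second Cyp26b1 knockout array 5 were. In the double knockout against wild type, 0 of the 54 were called when either wild-type array or the second double knockout array was left out, and 1 was higher without the first double knockout array. In the double against the Cyp26b1 knockout, 6 rather than 9 were lower when the second array of either knockout genotype was left out.

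Of 12 further peritubular myoid and smooth muscle genes, 2 exceeded wild type and 2 lay below it in the Cyp26b1 knockout. Cald1, which encodes the actin-binding protein caldesmon, was at -1.16 ± 0.12 (adjusted p = 0.000329), with its other probe at -1.60. Myocd, which encodes the serum response factor coactivator myocardin, was at -0.76 (adjusted p = 0.00322), while its other probe was at 0.39. The Myocd call held in 16 of 17 alternatives. In the double knockout 0 were higher and Cald1 alone was lower, at -0.71 (adjusted p = 0.0133), a call that was lost on omitting either wild-type array or the second double knockout array. Between the knockouts, 1 was higher and 3 were lower, among them the smooth muscle genes Actg2, a gamma actin, at -0.81 (adjusted p = 0.00331) and Smtn, smoothelin, at -0.55 (adjusted p = 0.00823). Both followed the direction of Des and Myh11 in that comparison, and both calls held in all 17 alternatives. The list as a whole did not: Cald1 was the gene called higher, at 0.44 (adjusted p = 0.0220), with its other probe at 1.23. Of the 12 genes 8 were not called, and the list's median was 0.13, against 0.11 for all named genes.

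Of 15 matrix and receptor genes, 3 exceeded wild type and 4 lay below it in the Cyp26b1 knockout. Fbln1, encoding the matrix protein fibulin 1, was higher by 0.97 ± 0.09 (adjusted p = 0.000211) on its brightest probe and by 1.24 on its other probe. Fstl1, encoding a secreted glycoprotein, was at -0.91 ± 0.12 (adjusted p = 0.000752). In the double knockout 2 were higher and 0 lower: Ogn, encoding the leucine-rich proteoglycan osteoglycin, at 0.79 (adjusted p = 0.0383) and Fbln1 at 0.38 (adjusted p = 0.0379), and each call was lost on leaving out any one of the 4 arrays compared. Between the knockouts 5 were higher and 3 lower, with Fstl1 at 0.81 (adjusted p = 0.00169) and Sparc, which encodes a collagen-binding glycoprotein, at 0.80 (adjusted p = 0.00103). These calls of Fstl1 and Sparc, and that of Fstl1 against wild type, each held in 16 of 17 alternatives.

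Of 17 progenitor transcription factor genes, 1 was higher and 8 were lower in the Cyp26b1 knockout than in wild type, with a median of -0.23 against -0.07 for all named genes. Tcf4, a basic helix-loop-helix gene, was at -0.95 ± 0.08 (adjusted p = 0.000164) on its brightest probe, with other probes at -1.12 and 0.67. In the double knockout limma called none of the 17 against wild type, with 2 higher and 2 lower at an unadjusted p under 0.05, while Lhx2 of the 10 genes was called. Between the knockouts 7 were higher and 3 lower, with Tcf4 at 0.71 (other probes 0.67 and -1.26) and the Polycomb gene Cbx2 at 0.56 (other probe -0.44), so the probe splits of Lhx9 recur here.

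Of 10 pericyte and vascular mural genes, 2 exceeded wild type and 2 lay below it in the Cyp26b1 knockout, and in the double knockout 2 exceeded it and 0 lay below. Angpt1, the ligand of the endothelial receptor Tie2, was at -1.03 in the Cyp26b1 knockout (adjusted p = 0.0103), was well above background on 1 of the 2 Cyp26b1 knockout arrays, and lost its call when the second wild-type array was omitted. Higd1b, a pericyte marker, was at 0.61 in the Cyp26b1 knockout (adjusted p = 0.0313) and 0.96 in the double knockout (adjusted p = 0.0227), and each call was lost on leaving out any one of the 4 arrays compared. With normexp background correction fitted on all spots both values of Higd1b turned negative and uncalled, at -0.85 and -0.30. Leaving out any one of those arrays also ended the call of the potassium channel gene Kcnj8 in the double knockout, at 0.47 (adjusted p = 0.0426). Between the knockouts 1 gene was higher and 0 were lower: Notch3, a receptor of mural cells, at 0.37 (adjusted p = 0.0322), which lost its call on omitting either wild-type array, the first Cyp26b1 knockout array or the second double knockout array.

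**Figure D5:**
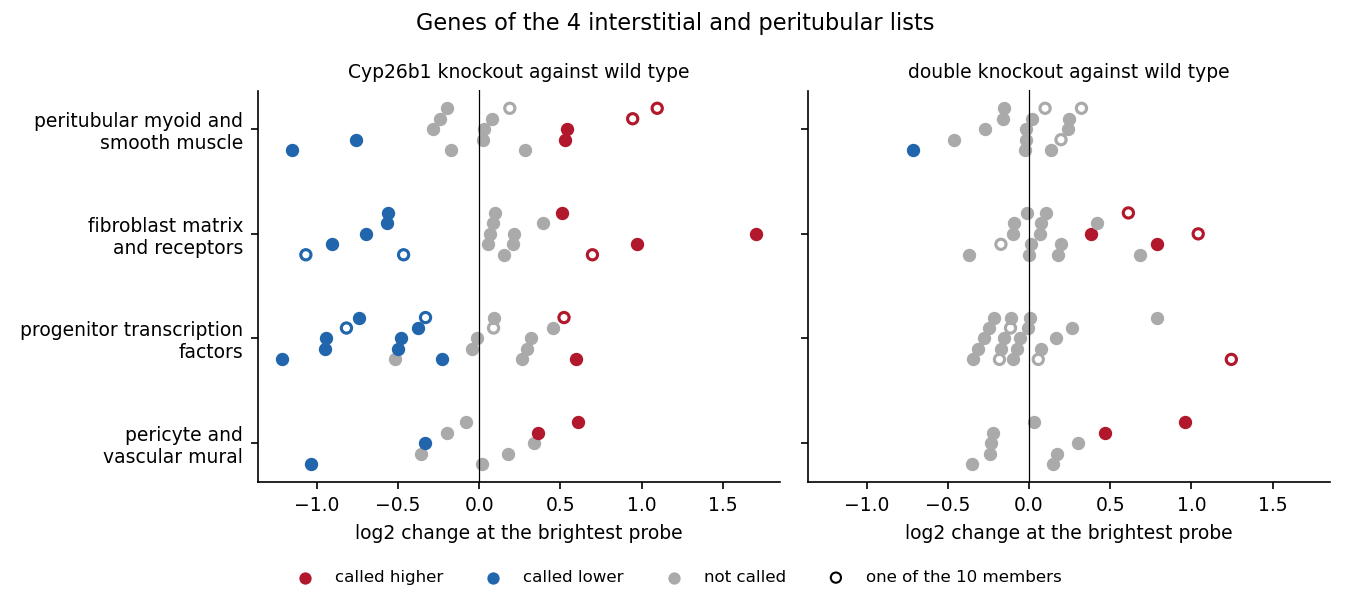
Difference at the brightest probe (log2, x axis) of each tested gene of the 4 interstitial and peritubular lists (rows), between each knockout genotype and wild type; open circles are the 10 genes described, colours mark calls. In the left panel blue points outnumber red ones among progenitor transcription factors, and in the right panel most points are grey, with Lhx2 and Lum furthest right.

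Markers of other cells moved as well, and their part in the values above was not tested. Against wild type, 23.7% of all named genes were called higher and 30.4% lower in the Cyp26b1 knockout. In the double knockout the shares were 6.73% and 6.35%. Desmin is also a skeletal muscle protein. Of the 11 tested genes of the skeletal and cardiac muscle list, 1 exceeded wild type and 6 lay below it in the Cyp26b1 knockout, and 0 and 3 in the double knockout. The list's mean level was -1.76 and -1.87 in wild type, -2.82 and -2.75 in the Cyp26b1 knockout, and -2.41 and -2.77 in the double knockout. Tnnc2, a troponin of fast skeletal muscle, was at -3.86 in the Cyp26b1 knockout (adjusted p = 0.000134), and Ckm, muscle creatine kinase, was well above background on neither Cyp26b1 knockout array. The gene above wild type was Actc1, cardiac alpha actin, named after its value was seen, at 0.49 (adjusted p = 0.0265), and 4 of the 11 were not called.

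The counts below stand beside the same shares of all named genes, 23.7% higher and 30.4% lower in the Cyp26b1 knockout. In the double knockout these shares were 6.73% and 6.35%. Of 7 fetal Leydig genes, 0 exceeded wild type and 5 lay below it in the Cyp26b1 knockout, and 0 and 2 in the double knockout. Their mean level was 3.53 to 3.72 in wild type, 2.67 to 2.97 in the Cyp26b1 knockout and 3.12 to 3.41 in the double knockout, without overlap. Of 8 endothelial genes, 4 exceeded wild type and 2 lay below it in the Cyp26b1 knockout, and 2 and 0 in the double knockout, with means of -0.02 to 0.06 in wild type, 0.26 to 0.28 in the Cyp26b1 knockout and 0.17 to 0.28 in the double knockout. The endothelial mean was thus higher on the arrays of both knockout genotypes than on those of wild type, as the levels of Lum, Lhx2 and Des were. Between the knockouts the endothelial means overlapped, while Lum and Lhx2 lay higher in the double knockout and Des lay lower. Whether the endothelial mean is related to any of these genes was not tested. Sertoli means overlapped between the genotypes, from 1.39 to 1.62, with 3 genes higher and 3 lower of 8 in the Cyp26b1 knockout and 1 and 3 in the double knockout. Of 8 germ cell genes, 2 exceeded wild type and 4 lay below it in the Cyp26b1 knockout, and 1 and 2 in the double knockout. Their mean level was 2.74 and 2.76 in wild type, 2.41 and 2.13 in the Cyp26b1 knockout, the lowest of the 3 genotypes, and 2.53 and 2.80 in the double knockout. Of 9 genes of the mesonephros and coelomic epithelium, 2 exceeded wild type and 4 lay below it in the Cyp26b1 knockout, and 1 and 2 in the double knockout, where the median was -0.52. Their mean level was -1.58 and -1.22 in wild type, -1.28 and -1.71 in the Cyp26b1 knockout and -1.87 and -1.94 in the double knockout, which was lowest without overlap. Lhx1, a LIM homeodomain gene of the mesonephros, was at -1.94 in the double knockout (adjusted p = 0.00319), a call that held in 16 of 17 alternatives. Of 6 blood genes, 2 exceeded wild type and 3 lay below it in the Cyp26b1 knockout, and limma called 0 in the double knockout, with 0 higher and 2 lower at an unadjusted p under 0.05. Blood means ran from -0.54 to -0.24 and those of the Cyp26b1 knockout overlapped both other genotypes.

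All 8 Sertoli, 8 germ cell and 7 Leydig genes on the array passed the filter on dim probes, so defining genes of the labelled tissue were measured.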

How the data were processed

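Spot intensities of each array were deposited by the authors as scanner output on a linear scale, after background subtraction and detrending by Agilent Feature Extraction 9.5.3.1, per the file headers. A table of 1 value per probe and genotype, also deposited, behaves as a linear ratio to a centring reference that no label names. Intensities (processed signals) were put on the log2 scale, less the 75th percentile of each array. Control and outlier spots were left out, and spots of a probe averaged. Probes were kept if both arrays of some genotype were well above background. They were fitted in limma 3.58.1 under R 4.3.3, with lmFit and a trended eBayes (3 residual and 4.45 prior degrees of freedom), with Benjamini-Hochberg adjustment over 27864 probes. The step was tested on simulated data: a first target for recovery was missed, the simulation and the target were then changed, and the lowered target was met, with some of the large and most of the small added changes left uncalled. Accessions were named through RefSeq (GRCm38.p6). Of 41149 probes usable on all arrays, 23363 matched 1 symbol. The p-values reflect the spread between the 2 arrays of a genotype, which shared a slide and a day of scanning. They hold no spread between slides, although every comparison was between slides. The number of arrays limits the precision further.

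The named genes are all 10 members at all their probes, and from each wider list and comparison the 2 called genes with the smallest adjusted p. Members and lists were chosen with earlier results of these data known, and the promoters printed were chosen after the values were seen. Probes of a gene disagree where their changes have opposite signs with at least 1 called, or differ by more than 1. Leave-one-out fits leave a genotype with 1 array, which is assumed to vary like the others. Array numbers do not pair the samples.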

Additional observations from a re-analysis of the deposited data

How the results depend on the processing

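Each value was recomputed under 17 alternatives, 1 of them, cyclic loess, chosen after seeing the data. The planned block on slide could not be fitted, since each genotype lay on its own slide, and normexp used median spot signals, because the files hold no mean signal column. With array number as a replicate block, the members' counts were 7 higher and 5 lower (Cyp26b1 knockout against wild type), 3 and 0 (double knockout against wild type) and 5 and 5 (between the knockouts), and no call of the 14 probes changed. Array numbers did not pair the samples (deviations of equal numbers correlated at 0.09 to 0.19).

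With normexp fitted on all spots, members' counts were 3 and 2, then 2 and 0, then 3 and 2, and counts over all probes were 2350 and 2366, 354 and 239, and 1959 and 1707, against 6984 and 7854, 1397 and 1806, and 6567 and 6201 as reported. In the Cyp26b1 knockout against wild type it turned the dimmer probes of Pdgfra to -0.36 and Lhx9 to -0.22, the only called values of the 14 probes that turned, and both were then uncalled. Fitted without the marked spots, normexp gave counts of 7 and 5, 3 and 0, and 6 and 5.

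For Cyp26b1 knockout against wild type, 3 members were lower under the deposited table's scaling and under cyclic loess, and 4 higher with only the brightest probe per gene. For double knockout against wild type, 1 was lower under the deposited table's scaling, which shifts that difference by -0.20. Between the knockouts, 2 were lower with the brightest probe per gene. Leaving out 1 array gave 6 to 7 higher and 3 to 4 lower, 2 to 3 higher and 0 lower, and 5 to 6 higher and 4 to 5 lower, in the same order of comparisons. The cause of these shifts was not tested.

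Over all probes, leaving out 1 array gave 5006 to 6955 higher and 5377 to 7828 lower, 321 to 1554 higher and 325 to 1977 lower, and 4662 to 5838 higher and 4725 to 5558 lower. Double knockout against wild type gave 878 and 1046 with no filter, 892 higher without the trend, and 805 and 5708 under the deposited scaling. Between the knockouts there were 11905 higher with no filter, 2576 higher and 10721 lower under the deposited scaling, and 3999 lower with the brightest probe per gene. The share of calls that were higher was 43.6% for double knockout against wild type (12.4% under the deposited scaling, 59.7% under normexp on all spots) and 51.4% between the knockouts (19.4% and 65.5% under the deposited scaling and with no filter).

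Uncalled values that changed sign, double knockout against wild type: under normexp on all spots Myh11 -0.047, Des -0.098 and Nr2f2 0.018; on leaving out 1 array Nr2f2 -0.24 to 0.015, the second Acta2 probe -0.092 to 0.19 and Tcf21 -0.026 to 0.14; under the deposited scaling the Acta2 probes -0.002, -0.15 and -0.006, Myh11 -0.10 and Tcf21 -0.14; under cyclic loess the second Acta2 probe -0.005. Between the knockouts the brightest Acta2 probe was -0.20 under quantile normalization, -0.076 under normexp on all spots, -0.12 to 0.14 on leaving out 1 array, -0.29 under the deposited scaling and -0.25 under cyclic loess. Tcf21 was -0.11 to 0.052 on leaving out 1 array, and Nr2f2 was -0.087 under the deposited scaling.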

Other observations

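For each member with a called probe, 12285 named genes were searched for the one whose signal correlated best with it over the 6 arrays. These were Crabp1, which encodes a cellular retinoic acid binding protein, for Lum (Pearson r = 0.998), Hal for Dcn (0.997), Fryl for Pdgfra (0.999), Leng9 for Lhx2 (0.998), Lrrc8a for Lhx9 (0.999), Gata1 for Des (0.998), Myd88 for Myh11 (0.992), Nfix for Acta2 (0.993) and Spink2 for Nr2f2 (0.998). Each member's brightest probe was used, and for Pdgfra and Lhx9 the other probe ran the opposite way. The brightest Acta2 probe spanned only 0.435 on the log2 scale and was not called in any comparison. The other Acta2 probes were called in opposite directions where the Cyp26b1 knockout arrays entered. Between 6 genes (Acta2) and 963 genes (Lhx9) had an r above 0.95. The 6 points are 3 genotypes on 3 slides, so these values only describe the arrays.

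In the authors' deposited table, the log2 ratio of double knockout to wild type was 1.05 for Lhx2, 0.84 for Lum and 0.41 for Dcn, and that of Cyp26b1 knockout to wild type was 1.20 for Des and 1.05 for Myh11.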
